A study of Mus musculus with 9 samples.

Results

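The transcriptome described here is that of unfractionated ID4-EGFP+ spermatogonia of the mouse, taken as a single population and set against no other. Its members are 3 of the 9 libraries of the study, labelled all ID4-EGFP+ and numbered 1 to 3. The other 6 libraries, of fractions stained strongly or weakly for the tetraspanin TSPAN8, were not used. The cells came from testes of male pups at postnatal day 6. The pups belonged to the LT-11B6 line, which carries an Id4-eGfp transgene on a C57BL/6 background and is 1 transgenic line, and the cells were sorted by flow cytometry. Each library is a separate preparation of sorted cells per the labels, and nothing in the labels says whether litters or animals differed between preparations. Values are FPKM, mapped fragments scaled by transcript length and library depth, so levels of different genes can be set side by side per length. Of 23813 table entries, 23045 gene symbols that stood on a single entry were ranked by their mean FPKM over the 3 libraries.

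Spermatogonia are the mitotic germ cells of the testis, and the undifferentiated ones among them include the stem cells that maintain sperm production. ID4 is an inhibitor of DNA binding that holds basic helix-loop-helix factors inactive, and EGFP driven by its gene marks the stem cell end of the undifferentiated pool. In the first days after birth these cells lie among Sertoli cells, which supply growth factors such as GDNF, and the first cells that respond to retinoic acid begin to differentiate toward meiosis.

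The 4 germ cell markers used to check the label were present in every library. Dazl, an RNA-binding protein gene needed for germ cell development, stood at 1534, 1504 and 1148 FPKM in replicates 1, 2 and 3 and ranked 87 of 23045. Ddx4, the germ cell RNA helicase gene, stood at 419, 640 and 395 FPKM and ranked 340. Id4 itself stood at 30.6, 38 and 38.2 FPKM and ranked 3005, but the sort used this gene's reporter, so its presence checks the sort and is no finding. Whether transgene transcripts add to the Id4 value was not tested. Zbtb16, a transcriptional repressor gene of undifferentiated spermatogonia, was the lowest of these markers at 6.62, 8.34 and 5.52 FPKM and ranked 6578. For Dazl replicate 3 was the lowest library, for Ddx4 replicate 2 was the highest, and for Id4 replicates 2 and 3 lay close together above replicate 1.

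Leaving out small noncoding RNA symbols, levels ran from several 1000 FPKM down to 0. The counts that follow include small RNAs, of which Snord68 had a mean of 33808 FPKM that came from replicate 2 alone. Of the ranked symbols, 155 had a mean of at least 1000 FPKM, 1303 stood from 100 to under 1000, 4218 from 10 to under 100 and 5189 from 1 to under 10. A mean of at least 1 FPKM was reached by 10865 symbols (47.1%), and 10289 of the ranked symbols reached 1 FPKM in every library. Below that level, 3937 symbols stood from 0.1 to under 1 FPKM and 3250 stood above 0 and under 0.1. The remaining 4993 symbols (21.7%) were listed at 0 in every library. Symbols above 0 in a single library numbered 1386, and the median of their highest FPKM was 0.0528, so most of these lay far below 1 FPKM. How many fragments each library held is unknown, so a value of 0 gives no upper limit here and means only that the symbol is listed at 0. The steps of the lowest values put replicate 2 at 1.03 and replicate 3 at 0.914 times the depth of replicate 1. These ratios are rough, as their main steps held 10.6% and 9.52% of the low symbols compared.

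**Figure D1:**
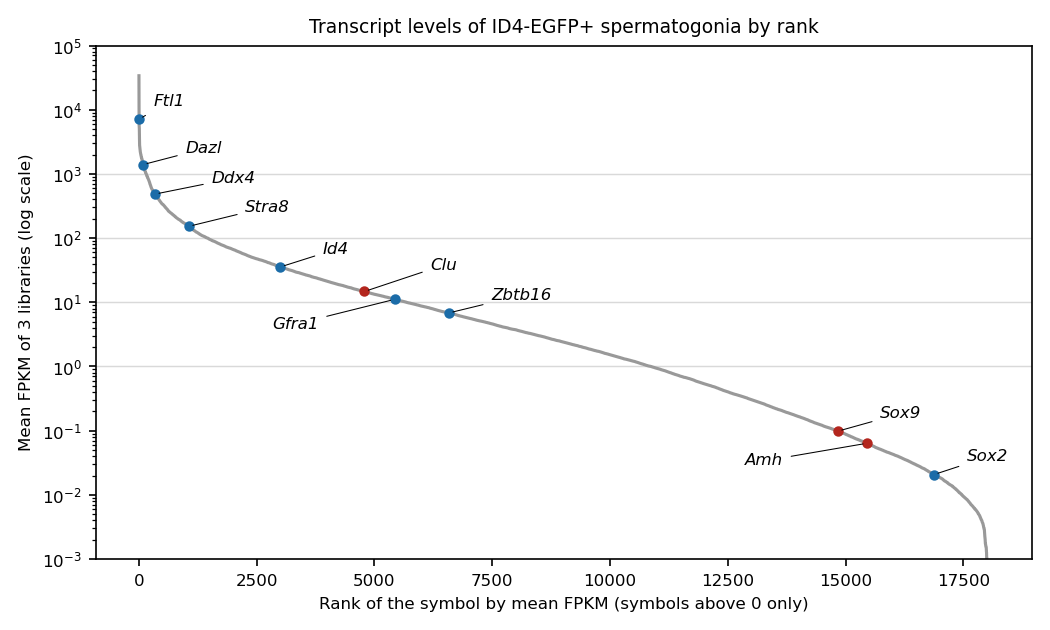
Mean FPKM of the 3 libraries on a log axis against the rank of the symbol, for symbols with a mean above 0; values under 0.001 fall below the axis. Blue points mark Ftl1 and germ cell genes, with Sox2 among them, and red points mark 3 Sertoli cell genes. Dazl and Ddx4 lie near the top of the curve, Id4, Gfra1 and Zbtb16 along its middle, and Sox9, Amh and Sox2 near or under 0.1 FPKM.

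The highest symbols were genes of mixed functions. Leaving out small noncoding RNA symbols, Ftl1, the light chain of the iron store ferritin, ranked first at 7885, 4928 and 8487 FPKM. Ppia, the prolyl isomerase cyclophilin A, stood at 5441, 5079 and 7093 FPKM. Replicate 2 was the lowest library for both genes and replicate 3 the highest. Prdx1, a peroxidase that removes hydrogen peroxide, varied little, at 5691, 5931 and 5512 FPKM. Snrpe, a core protein of the spliceosome's small nuclear ribonucleoproteins, went the other way from Ftl1, with 4880, 7186 and 3883 FPKM and its highest value in replicate 2. The 25 highest also held the ubiquitin gene Ubb (5035 ± 1349 FPKM, SD, n = 3), the metallothionein Mt1 (2729 ± 417), the calmodulin gene Calm2 (2710 ± 425) and the histone variant gene H2afz (2521 ± 141). Further ones were the ribosomal protein genes Rpl41, Rpl38 and Rps28, the respiratory chain genes Uqcrb, Uqcr11 and Cox4i1, the mitochondrial proteolipid genes Usmg5 and 2010107E04Rik, the G protein subunit gene Gng5 and the splicing gene Snrpg. Of the 25 highest symbols in each library, 19 were shared by all 3 libraries, and of the 100 highest, 75 were.

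**Figure D2:**
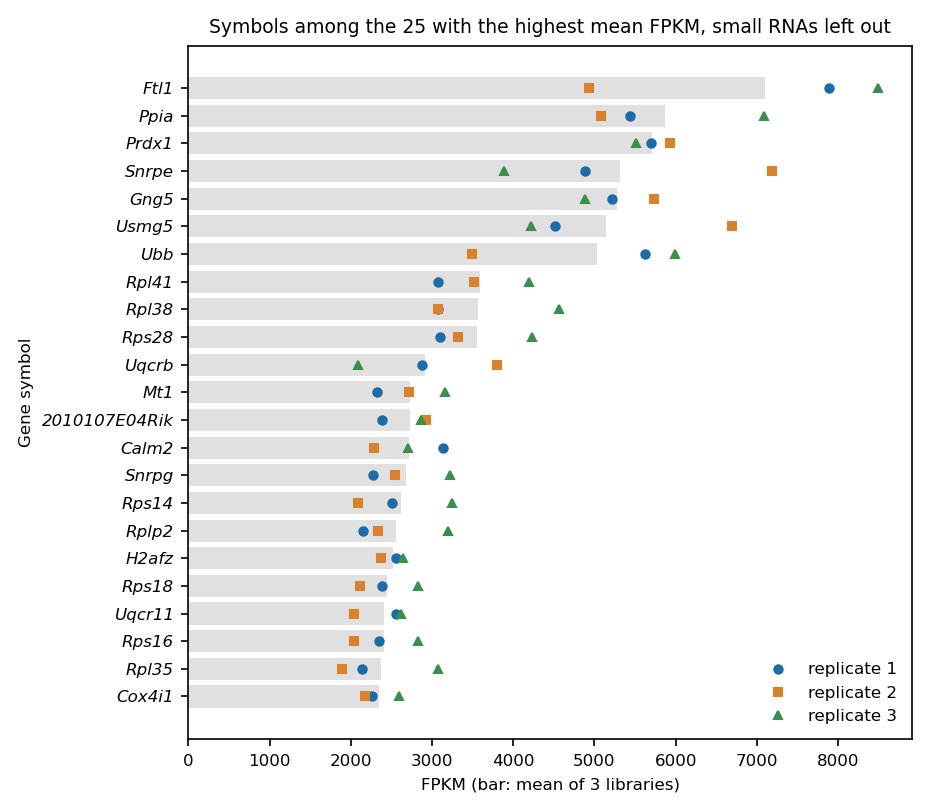
FPKM of 23 of the 25 symbols with the highest mean FPKM, small noncoding RNAs left out. Grey bars give the mean of 3 libraries and the symbols give each library; Ftl1 leads, replicate 3 is the highest library for the ribosomal protein genes drawn, and Snrpe, Usmg5 and Uqcrb are highest in replicate 2.

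The top of the ranking took up a large part of the measured total. The 100 highest symbols without small RNAs held 26.4%, 26.9% and 28.1% of the summed FPKM of replicates 1, 2 and 3 (27.1% ± 0.882), and the 1000 highest held 72.4% ± 1.01. These are shares of FPKM, which count transcripts per length, not shares of reads. Among the small RNAs, Snord68 was listed at 0, 101424 and 0 FPKM, which was 11.4% of the summed FPKM of replicate 2 alone. Snora68 was likewise listed at 0, 4973 and 0 FPKM. The cDNA was primed on poly(A) tails and FPKM divides by transcript length, and the part of either in these values was not tested. Of 719 small RNA symbols, 28 had a mean of at least 10 FPKM.

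Gene families of basic cell functions were expressed nearly whole. All 86 cytosolic ribosomal protein symbols reached a mean of 1 FPKM, against 47.1% of all symbols, and their median was 1103 FPKM. Together they made up 12.6%, 13.3% and 15.3% of the summed FPKM without small RNAs in replicates 1, 2 and 3. All 76 mitochondrial ribosomal protein symbols also reached 1 FPKM, with a lower median of 134 FPKM and Mrps18c the highest at 974 ± 201 FPKM. The 17 ATP synthase symbols all reached 10 FPKM (median 1023), as did 44 of 45 symbols of respiratory chain complex I (median 323) and 47 of 49 proteasome symbols (median 302). The highest proteasome gene was Psmb2, a subunit of the catalytic core, at 2086, 1703 and 2169 FPKM. Of the chaperonin subunits, which fold actin and tubulin, 9 of 10 reached 1 FPKM, with Cct8 at 996 ± 302 FPKM. Among heat-shock proteins 60 of 75 did, with Hspe1, the mitochondrial co-chaperonin, at 1548 ± 366 FPKM.

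Most genes of germ cell identity were expressed. Of 26 genes on a germ cell identity list, 24 reached 1 FPKM, 21 reached 10 and 10 reached 100, and the list's median of 45.5 FPKM compares with 0.697 FPKM over all symbols. Beside Dazl and Ddx4, Mael, a component of the piRNA pathway that silences transposons, stood at 996, 893 and 838 FPKM. Fkbp6, an immunophilin of the same pathway, stood at 971, 734 and 964 FPKM. Tex19.1 (422 ± 51.5 FPKM), Tex101 (416 ± 66.3) and the tudor domain kinase gene Stk31 (368 ± 50.6) followed. The piRNA proteins themselves were lower and unequal. Piwil2, which acts in fetal and early postnatal germ cells, stood at 27.7, 23.9 and 23.6 FPKM, Piwil4 at 3.07, 3.60 and 3.13 FPKM, and Piwil1, the PIWI protein of pachytene spermatocytes, at 0.423, 0.526 and 0.594 FPKM. The 3 PIWI genes kept this order in every library without overlap. Kdm4d, a histone demethylase gene, was the other list member under 1 FPKM, at 0.446 ± 0.0917. Of 8 tudor domain symbols 7 reached 1 FPKM, led by Tdrd12 (102 ± 8.21 FPKM) and Tdrkh (86.8 ± 7.36), while Tdrd6, which acts in spermatids, stood at 0.0635 ± 0.0276.

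Genes of the undifferentiated state spanned more than 3 orders of magnitude. Of 30 such genes 24 reached 1 FPKM, 12 reached 10 and 3 reached 100, with a median of 6.96 FPKM. Nanos3, an RNA-binding repressor gene, led at 168, 138 and 203 FPKM, and its paralogue Nanos2, which keeps stem cells from differentiating, stood at 8.27, 5.85 and 8.24 FPKM. Tcl1, an activator of the AKT kinase, stood at 160, 123 and 180 FPKM and Sdc4, a cell surface proteoglycan gene, at 96.9, 105 and 114 FPKM. In all of these but Sdc4 replicate 2 was the lowest library. Among genes known to respond to GDNF, Etv5 stood at 18.8 ± 3.19 FPKM, Bcl6b at 7.09 ± 0.831, Egr2 at 5.84 ± 1.72 and Lhx1 at 2.75 ± 0.608, while Egr3 stood at 0.112, 0.0727 and 0 FPKM. Several genes that have been used to define stem cell subsets were low: Eomes stood at 1.05, 0.601 and 0.995 FPKM, the brachyury gene T at 0.467, 1.10 and 0.754, and Pax7 at 0.0444, 0.0429 and 0.0848. Pdx1, a homeodomain gene, was listed at 0 in every library. A low mean in a bulk library cannot tell few strongly expressing cells from many weakly expressing ones.

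Genes of progenitors and of the start of differentiation were also present in these ID4-EGFP+ cells. Of 20 such genes 18 reached 1 FPKM and 5 reached 100, with a median of 27.5 FPKM. Nanos3, Upp1 and Lin28a are on both this list and that of the undifferentiated state. Crabp1, a cytoplasmic binding protein of retinoic acid, stood at 391, 272 and 321 FPKM. Stra8, which retinoic acid switches on, stood at 159, 154 and 144 FPKM, with a coefficient of variation (SD over mean) of 0.0496. Sohlh1 (132 ± 17.6 FPKM) and Sohlh2 (82.5 ± 5.34), a pair of basic helix-loop-helix genes of early differentiation, were both high. Kit, the receptor that marks differentiating spermatogonia, was low at 5.35, 4.23 and 4.35 FPKM, and Neurog3, a progenitor gene, was uneven at 10.4, 3.98 and 6.71 FPKM. Of 23 genes that handle or sense retinoic acid, 18 reached 1 FPKM and 3 reached 10. The receptor genes were low, with Rara at 2.80 ± 0.469 FPKM, Rarg at 1.38 ± 0.317 and Rarb at 0.511 ± 0.107, and Cyp26a1, which degrades retinoic acid, stood at 4.49 ± 0.838 FPKM.

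Several genes known from meiosis were transcribed at high levels in these cells, while genes known from later stages ranged from over 100 FPKM to 0. Of 35 genes on the list 24 reached 1 FPKM and 7 reached 100. Sycp3, which builds the lateral element of the synaptonemal complex, stood at 973, 632 and 855 FPKM and ranked 203. Syce2, of the complex's central element, stood at 444, 400 and 410 FPKM. Syce1 (170 ± 13.4 FPKM), Hormad1 (165 ± 19.9), the RNA helicase gene Ddx25 (155 ± 29.5), which acts in spermatids, Sycp1 (146 ± 11.1) and Syce3 (108 ± 10.7) followed, and neighbours in that order differed by less than the sum of their SDs, except Sycp1 and Syce3. Enzymes of recombination were lower, with Dmc1 at 27.1 ± 3.74 FPKM and Spo11, which makes the meiotic DNA breaks, at 1.84 ± 0.429. Of the proteins that pack sperm DNA, Prm2, Tnp2 and Prm3 were listed at 0 in every library and Prm1 at 0, 0.459 and 0, whereas Tnp1 stood at 20.2, 17.5 and 24.4 FPKM. Acrv1, of the sperm acrosome, and Gapdhs, the sperm glyceraldehyde phosphate dehydrogenase, were listed at 0. Other genes best known from spermatocytes or spermatids were present, with Crem at 14.6 ± 5.59 FPKM, the acrosome gene Spaca1 at 14.3 ± 3.93, Ldhc between 3.03 and 3.66 FPKM, and Odf1 at 1.93 ± 0.529.

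**Figure D3:**
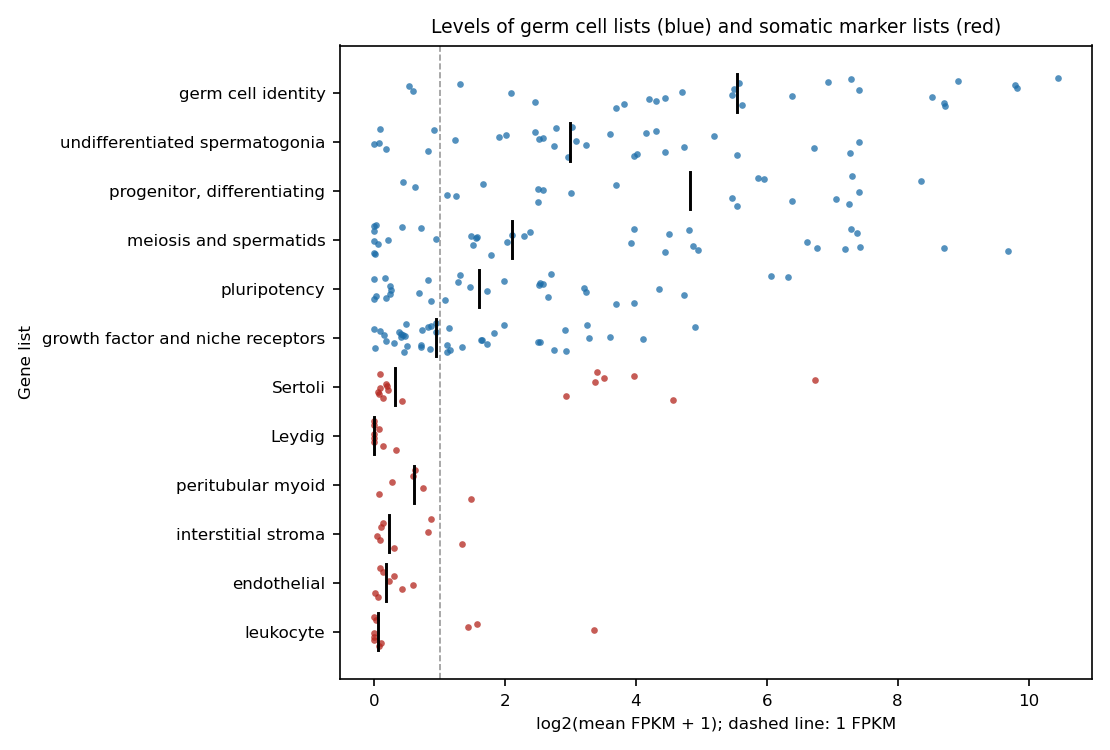
Levels of listed genes as log2(mean FPKM + 1), with 1 point per gene and a black line at each list's median; the dashed line is 1 FPKM. Of the 12 lists drawn, germ cell identity has the rightmost median, at 45.5 FPKM, and the medians of the 6 somatic marker lists (red) lie to the left of the dashed line.

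Pluripotency genes ranged widely in level. Of 30 genes 22 reached 0.5 FPKM, 19 reached 1, 15 reached 2 and 6 reached 10, with a median of 2.05 FPKM. Dppa5a stood at 71.1, 70.0 and 96.4 FPKM, Dppa4 at 56.9, 63.6 and 76.9, and Sall4, a zinc finger gene that undifferentiated spermatogonia share with embryonic stem cells, at 22.8, 20.03 and 33.8. Nanog, a homeodomain gene of the embryonic stem cell core, stood at 17.2, 16.5 and 24.9 FPKM and Pou5f1, which encodes OCT4, at 6.31, 6.12 and 12.8 FPKM. Replicate 3 was the highest library for each of these 5 genes. Sox2, the usual partner of OCT4, stood at 0.0402, 0 and 0.0220 FPKM, Esrrb at 0.121 ± 0.0243 and Prdm14 at 0.188 ± 0.192, and Fgf4 and Tdgf1 were listed at 0. Others lay between these ends, such as Mycn at 8.21 ± 2.34 FPKM, Dppa2 at 5.49 ± 0.648 and Stat3 at 5.34 ± 0.658. The deposited table gives 1 value per symbol, and reads of processed pseudogenes of Nanog, Pou5f1 or Dppa genes, if counted there, could not be told apart.

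Receptors for growth factors were expressed about as often as all symbols. Of 42 receptor genes 20 reached 1 FPKM, against 47.1% of all symbols, 3 reached 10, and the median was 0.921 FPKM against 0.697 over all symbols. Bmpr1a, a type I receptor for bone morphogenetic proteins, was the highest at 26.2, 36.8 and 23.7 FPKM. The GDNF receptor is built of GFRA1, which binds the ligand, and RET, which signals: Gfra1 stood at 9.87, 11.5 and 12 FPKM and Ret at 5.09, 6.05 and 5.94. Gfra4, a family member that binds persephin, was higher than Gfra1 in every library, at 18.1, 15.4 and 15.2 FPKM. Fgfr1 stood at 2.56 ± 0.264 FPKM, while Fgfr2, Fgfr3 and Fgfr4 were each under 1. Csf1r was listed at 0. Of surface proteins used to sort spermatogonia, the tetraspanin Cd9 (311 ± 86.2 FPKM), Epcam (109 ± 16.1) and the integrin subunit Itgb1 (43.7 ± 5.14) were high, Itga6 stood at 6.10 ± 0.749, and Thy1 at 0.404 ± 0.0685. Tspan8 stood at 14.5, 14.2 and 16.8 FPKM, Epha2 at 0.873, 0.856 and 0.874, and Pvr at 0.236, 0.457 and 0.424.

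Cycling and metabolic genes were expressed broadly. Of 29 cell cycle genes 27 reached 1 FPKM, with the replication clamp gene Pcna at 698, 732 and 564 FPKM, Ccnb1 at 580 ± 42.5 and Cdk4 at 501 ± 85.1. The cyclin D genes ran Ccnd2 (57.5 ± 10.8 FPKM), Ccnd3 (39.99 ± 8.41) and Ccnd1 (29.0 ± 5.53). Cdkn1b, the p27 inhibitor gene, stood at 0.315 ± 0.0202. Of 22 genes of glycolysis 19 reached 1 FPKM: Gapdh stood at 1907 ± 158, Eno1 at 439 ± 67.0 and Pkm at 71.9, 161 and 126, while Hk1 stood at 2.12 ± 0.50 and Pfkl at 0.16 ± 0.0707. Of the DNA methyltransferases, Dnmt1, which copies methylation after replication, stood at 13.2 ± 1.77 FPKM, the de novo enzyme Dnmt3b at 12 ± 0.777 and Dnmt3a at 3.23 ± 0.857. Tet3 stood at 0.976 ± 0.119 FPKM, Tet1 at 0.0811 ± 0.0219 and Tet2 at 0.0548 ± 0.0358.

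Most symbols of the RHOX and MAGE families, counted by name, were above 1 FPKM. Of 28 RHOX homeobox symbols 25 reached 1 FPKM, led by Rhox10 at 129, 111 and 108 FPKM and Rhox13 at 38.5, 45.6 and 45.1. Of 20 MAGE symbols 15 did, led by Mageb4 at 602, 411 and 517 FPKM. Copies in both families are near-identical in places, so the split of reads between members such as Rhox2a and Rhox2b is uncertain.

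Transcription factor and signalling families of other lineages were mostly under 1 FPKM. Of 40 HOX symbols 5 reached 1 FPKM and 17 were listed at 0, and the 5 were all of the HOXB cluster, led by Hoxb7 at 8.96, 7.33 and 12.5 FPKM. None of 6 GATA genes reached 1 FPKM, with Gata2 the highest at 0.528 ± 0.113, and of 15 T-box genes only Tbx1 did, at 1.65 ± 0.558. None of 14 Eph receptor genes reached a mean of 1 FPKM. Other families were more often expressed: 7 of 9 DMRT genes reached 1 FPKM, and Dmrt1, which restrains meiotic entry in spermatogonia, stood at 128, 116 and 121 FPKM. Few genes of families named for ligands reached 1 FPKM. In these families 2 of 34 interleukins, 2 of 19 WNT genes, 4 of 22 FGF genes and 4 of 21 BMP and GDF genes did. The FGF genes were Fgf13, Fgf22, Fgf12 and Fgf9, counted by name, whether or not they act as ligands. Bmp7 was the highest gene of these families, at 16.9, 12.6 and 17.6 FPKM, followed by Il18 at 13.3, 10.1 and 6.79 FPKM. Of 44 collagen genes 1 reached 1 FPKM, Col5a1 at 1.09 ± 0.235.

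Sensory receptor genes were nearly all without signal. Of 1115 olfactory receptor symbols 1042 were listed at 0 in every library, and 2 reached 1 FPKM, Olfr316 at 4.61, 4.49 and 5.45 FPKM and the pseudogene Olfr856-ps1 at 2.42, 2.68 and 2.44. Of 315 vomeronasal symbols 253 were listed at 0. The one above 1 FPKM was Vmn2r-ps129, a pseudogene by its name, at 65.0, 67.7 and 82.5 FPKM. None of 38 taste receptor symbols reached 1 FPKM. In these 3 exceptions the libraries lay close together.

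Promoters of expressed genes were compared with those of olfactory receptor genes, using RefSeq windows of 300 bases (250 before to 50 after the start, GRCm38.p6). Symbols from 10 to under 1000 FPKM had such a window in 82.1% of cases. Of their windows, 80.8% had a ratio of observed to expected CG pairs of at least 0.6, against 0.535% of olfactory receptor windows. The share was 36.5% over 27025 RefSeq windows, 1 per symbol and not limited to ranked symbols. Over ranked symbols without small RNAs it was 49.4%, but 78.2% of these had a window, under the 80% required below. The median window held 22 CG pairs from 10 to under 1000 FPKM and 1 in olfactory receptors. The letters TATAAA, on the gene's strand and 40 to 15 bases before the start, stood in 0.820% and 1.39% of the windows of these 2 sets. They stood in 2.22% of the 27025 windows and in 2.78% of those of ranked symbols. The same check was void for the other level bands and for the ribosomal protein and germ cell identity genes, because under 80% of their symbols had a window. As single examples, 4 windows are printed from 80 bases before to 20 after the start, 5′ to 3′ on the gene's strand, with CG pairs in capitals. They are no sample of the sets compared: only Nanos3 lies from 10 to under 1000 FPKM, and no olfactory receptor is among them. Rpl41 is the highest ribosomal protein gene with a window, Dazl the highest germ cell identity gene, Nanos3 the highest gene of the undifferentiated list, and Prm2, chosen after its values were seen, a spermatid gene listed at 0.
Rpl41 (chr10:128549149-128549248, minus strand): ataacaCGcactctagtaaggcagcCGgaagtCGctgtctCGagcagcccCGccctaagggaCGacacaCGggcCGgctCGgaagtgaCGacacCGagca
Dazl (chr17:50293601-50293700, minus strand): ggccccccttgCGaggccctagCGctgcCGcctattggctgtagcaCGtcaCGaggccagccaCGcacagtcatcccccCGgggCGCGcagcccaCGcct
Nanos3 (chr8:84176533-84176632, minus strand): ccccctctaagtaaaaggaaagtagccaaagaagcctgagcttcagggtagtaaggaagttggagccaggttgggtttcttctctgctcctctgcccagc
Prm2 (chr16:10792086-10792185, minus strand): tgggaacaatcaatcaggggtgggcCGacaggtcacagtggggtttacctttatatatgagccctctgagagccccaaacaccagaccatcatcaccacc
The whole 300-base window of Dazl held 28 CG pairs and that of Rpl41 held 16, with ratios of 0.795 and 0.877. That of Nanos3 held 3 CG pairs at a ratio of 0.131, as few as the 3 of Prm2 (0.137), although Nanos3 was transcribed at 169 ± 32.8 FPKM and Prm2 was listed at 0. The exact letters TATAAA in the stated place were found in none of the 4. Variants, such as the letters TATATA in the printed bases of Prm2, were not searched.

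Markers of the other cells of the testis were mostly under 1 FPKM, and of these lists only the Sertoli list had members of at least 10 FPKM. None of 8 Leydig cell genes reached 1 FPKM, and Cyp11a1, Cyp17a1, Hsd3b6, Insl3 and Lhcgr were listed at 0 in every library. None of 8 endothelial genes and none of the 4 red cell genes ranked did, and the beta-globin genes Hbb-b1 and Hbb-b2 were listed at 0. Of 6 peritubular myoid genes 1 did, Tagln at 1.8 ± 0.564 FPKM, and of 8 stromal genes 1 did, Pdgfra at 1.54 ± 0.269. Of 10 leukocyte genes 3 did, led by the lysosomal gene Cd68 at 7.31, 8.98 and 11.5 FPKM, while Csf1r, Emr1, Itgam and C1qa were listed at 0. In bulk samples few cells of a type and little RNA per cell cannot be told apart.

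Of 16 Sertoli cell genes 7 reached 1 FPKM, against 47.1% of all symbols, and their median was 0.254 FPKM against 0.697 over all symbols. Replicate 3 was the highest library for 13 of the 16. That library was the highest for 37.6% of all symbols of at least 10 FPKM that are not small RNAs. Only 4 of the 16 Sertoli genes reached 10 FPKM, and no such share was computed for lower symbols. The highest library of a gene near 0 can rest on few fragments. The summed level of the 16 Sertoli genes was 122, 180 and 238 FPKM in replicates 1, 2 and 3. Of this Ctsl, a lysosomal protease gene that many cell types express, made up 87.6, 115 and 114 FPKM. Clu, which encodes the secreted chaperone clusterin, stood at 2.49, 15.3 and 26.4 FPKM. Cst12, a cystatin gene of Sertoli cells, stood at 2.29, 7.13 and 21.8 FPKM. Aard (5.92, 4.39 and 18.3 FPKM) and Defb19 (2.63, 4.49 and 21.0) were also highest in replicate 3. The genes that define the Sertoli cell remained near 0: Sox9 stood at 0.0115, 0.133 and 0.15 FPKM, Amh at 0.0931, 0.0301 and 0.0681, Fshr at 0.0840, 0.142 and 0.207, and Wt1 at 0.235, 0.197 and 0.616. The 8 stromal genes also had their highest value in replicate 3, with Dcn at 0, 0 and 2.30 FPKM. Only 1 of the 8 had a mean of at least 1 FPKM, and Col1a1, at 0.724, 0.865 and 0.867 FPKM, was barely highest in replicate 3. Dppa5a, Dppa4, Sall4, Nanog and Pou5f1 were highest in the same library, although over the whole pluripotency list 11 of 30 genes were highest in replicate 3 and 11 in replicate 1. The part of somatic cells in any of these differences was not tested. Leaving out replicate 3 left 7 Sertoli genes at 1 FPKM or more, 24 germ cell identity genes and 24 genes of the undifferentiated list.

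Across the 23045 symbols, log2(FPKM + 1) of library pairs correlated with Pearson's r of 0.990 to 0.994 and Spearman's rho of 0.971 to 0.973; these are values across genes, which are not independent replicates. For the 5648 symbols of at least 10 FPKM that are not small RNAs, the median coefficient of variation was 0.145, with 0.0419 and 0.301 as the 5% and 95% points of the distribution. Replicate 2 was the lowest library for 44.4% of these symbols, against 27.8% for each of the others, and its median absolute deviation from the 3-library mean was 0.16 on the log2 scale, against 0.12 in replicate 1 and 0.13 in replicate 3. The coefficient of variation was under 0.1 for 1493 symbols (26.4%) and over 0.5 for 20. Of the symbols from 10 to under 100 FPKM, 86.7% stood in that band in every library.

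The genes with the smallest spread over the libraries were of mixed function and medium level. They are the lowest extreme of all symbols of at least 10 FPKM, and each SD rests on few libraries. A gene can therefore rank here by sampling alone, and whether these genes are steadier than others was not tested. Clic4, a chloride intracellular channel gene, had the smallest spread on the log2 scale, with 34.8, 34.6 and 34.7 FPKM. Paxbp1 stood at 15.5, 15.6 and 15.5 FPKM. Sgk3, Hn1l, Parpbp, Wdr73, Tspan14, Utp15, B230217C12Rik, Bap1 and Orc1 were also among the 12 with the smallest spread, each with a coefficient of variation under 0.01. Among 16 genes often taken as references the median coefficient of variation was 0.140, beside 0.157 for all symbols of at least 1 FPKM and 0.145 for those of at least 10. Actb stood at 412, 462 and 471 FPKM, Hprt at 441, 393 and 344, and B2m at 60.1, 66.1 and 62.6.

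Of the 12 most variable symbols 10 were small RNAs seen in 1 or 2 libraries. The other two were Gm12669 (98.5, 0.0495 and 221 FPKM) and Gm12238 (0, 18.5 and 62.2 FPKM), both predicted genes. When small RNAs were left out, the next were Clu, Cst12 and Cst9, a further cystatin gene (3.24, 10.8 and 21.8 FPKM), all highest in replicate 3. They were followed by Gm10012, Gm14393 and Gstm2, a glutathione transferase gene at 11.7, 19.11 and 47.1 FPKM. Another set was highest in replicate 2, among them Dhx9, an RNA helicase gene (24.6, 59.2 and 17.2 FPKM), and Supt16, a histone chaperone gene (39.9, 83.3 and 28.7 FPKM).

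**Figure D4:**
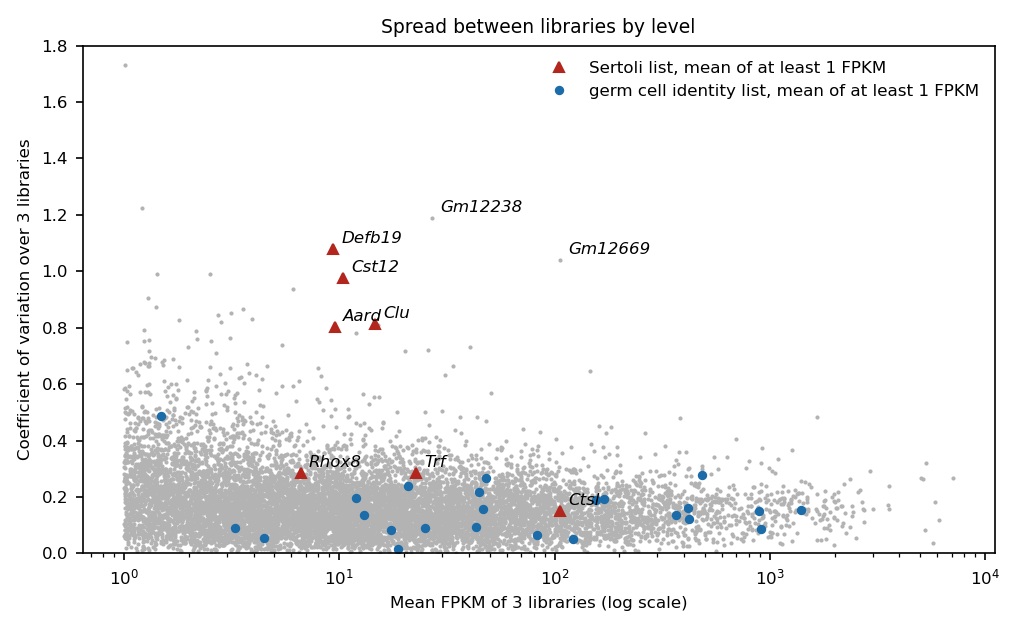
Coefficient of variation over 3 libraries against mean FPKM (log axis) for symbols of at least 1 FPKM that are not small RNAs. Most points lie below 0.3; Clu, Cst12, Aard and Defb19 of the Sertoli list (red) lie at or above 0.8, while the germ cell identity genes (blue) lie among the rest.

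Part of the spread went with transcript length and base content. With symbols of at least 10 FPKM sorted into 5 equal classes by the length of their transcript, the shortest class (median 982 bases) deviated from the 3-library mean by a median of 0.0064 in replicate 1, -0.16 in replicate 2 and 0.16 in replicate 3, on the log2 scale. In the longest class (median 4956 bases) the deviations were 0.024, 0.074 and -0.087. By GC content, the class with the least (median 41.0%) deviated by 0.068, 0.090 and -0.15, and the class with the most (median 57.1%) by 0.013, -0.15 and 0.12. Replicates 2 and 3 thus lay on opposite sides in both ends, and replicate 1 lay nearer 0. The ribosomal protein genes, which are short, made up 12.6%, 13.3% and 15.3% of the summed FPKM without small RNAs in replicates 1, 2 and 3. Their share was thus highest in replicate 3 but lowest in replicate 1, whereas the shortest class was lowest in replicate 2. The part of length and GC content in the differences of single genes was not tested. Levels and length were related in no single direction: the median transcript was 937 bases at 1000 FPKM and above, 1634 from 100 to under 1000, 2676 from 10 to under 100 and 3439.5 from 1 to under 10. It was shorter again below that, with 3065.5 bases from 0.1 to under 1 FPKM, 2886.5 above 0 and under 0.1, and 1917 for symbols listed at 0.

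**Figure D5:**
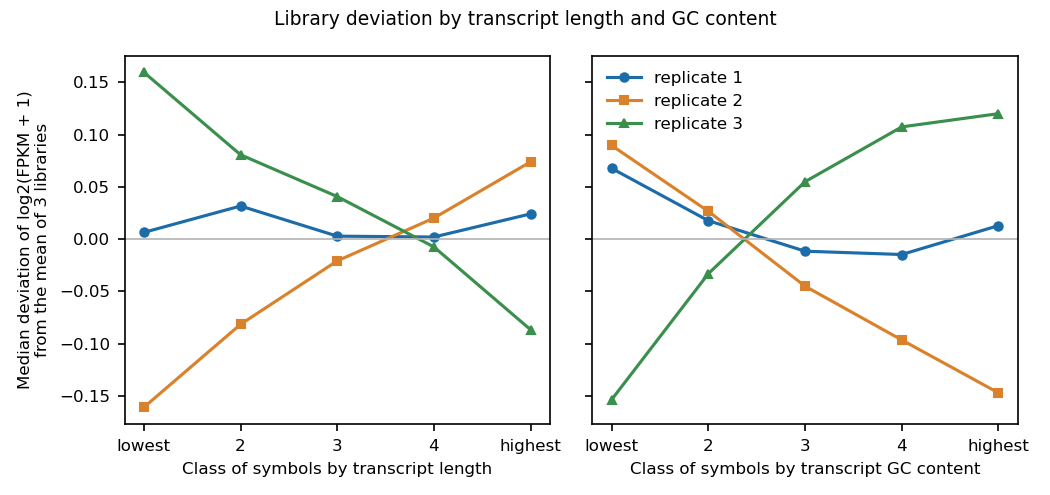
Median deviation of log2(FPKM + 1) from the mean of 3 libraries, for symbols of at least 10 FPKM in 5 equal classes by transcript length (left) and GC content (right). Lines are the 3 libraries; replicates 2 and 3 slope in opposite directions in both panels and replicate 1 stays closest to 0 in the highest class of each.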

How the data were processed

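RNA of sorted cells was converted to cDNA with SMART-Seq v4, primed on poly(A) tails and amplified for 9 cycles, and libraries were made with Nextera XT from 250 pg of cDNA and sequenced as 100 bp pairs, per the labels' protocols. Strand is not kept by this kit, and overlapping or antisense genes were therefore not separated. The authors deposited Cufflinks FPKM values. Reads were aligned to mm9, and the programs listed are Bowtie2 2.2.3.0, TopHat2 2.0.12, Cufflinks and FastQC, per the submitters' processing notes. No source used here gives the gene annotation or the version of Cufflinks. A normalized table, also deposited by the authors and treated as signal, served as an alternative, with a method that no source used here gives, and the log2 scale below was computed here.

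Left out were 262 symbols that shared 768 entries, and 23 ranked symbols were dates. Means, SDs, coefficients of variation and the SD of log2(FPKM + 1), with a pseudocount of 1, were computed over the 3 libraries with Python 3.11.15 and pandas 2.3.3, checked on simulated data. A gene was taken as expressed at a mean of at least 1 FPKM. No groups were compared and no test was made. Absolute depth is unknown, so no intervals are given, and n = 3 limits the precision of each SD.

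The 24 gene lists, 47 families and the population itself were chosen with earlier results of these data known. Named were the 25 highest symbols without small RNAs, the list members, up to 4 of the highest family members, and the 12 most and 12 least variable symbols of at least 10 FPKM; other names were chosen after their values were seen. The results of some genes that this rule takes are not reported here. GENCODE M21, a later build, gave length (longest coding transcript) and GC content for 22677 symbols (98.4%), with no coordinates. RefSeq promoter windows (GRCm38.p6) were matched by symbol to 17467 of 22326 symbols (78.2%), small RNAs left out. Alternatives were other libraries, scalings, averages, thresholds and pseudocounts.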

Additional observations from a re-analysis of the deposited data

How the results depend on the processing

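The counts of symbols at each level, the share of the top 100, their overlap and the band counts kept within 1.5 times of their values, or within their spread, under every alternative run. The median coefficient of variation moved. It was 0.145 with all libraries, 0.101 to 0.142 with each library left out in turn (0.101 without replicate 2), and 0.221 over all symbols above 0 FPKM. With a library left out each SD is over fewer libraries, so those values are not directly comparable with 0.145. Symbols of at least 1 FPKM numbered 10843 to 10877 with a library left out and 10761 in the authors' normalized values, and 12140 and 9412 symbols reached 0.5 and 2 FPKM. Of 431 gene means, 9 moved by more than their SD in the authors' normalized values, and of 24 SDs of log2 values 5 grew by 1.5 times or more with a pseudocount of 0.1. The share of summed FPKM in the top 100 was 29.7% with small RNAs and 27.1% without them. Of the 25 highest symbols, 23 to 25 remained among the 25 highest when a library was left out. With 0.5 or 2 FPKM in place of 1 as the threshold, 5 and 3 of the 24 list counts moved by over 1.5 times, all in lists with at most 3 members at 1 FPKM. List counts with a library left out, an alternative chosen after seeing the data, moved by over 1.5 times for the stromal list alone (2 in place of 1 without replicate 1 or 2). Counting values under 0.001 FPKM as 0, also chosen after seeing the data, gave 5038 symbols at 0 in place of 4993. The check of promoters with a single entry was void for the level bands (under 80% of symbols), so the 80.8% share had no alternative. For olfactory receptors it gave 0.538% in place of 0.535%. No paired analysis was possible because a single group of libraries was described. FPKM of short transcripts and of near-identical copies is the least certain, and values near 0 rest on few fragments.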

Other observations

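Some germline relatives of broadly used genes stood above the broad gene in these mitotic cells. In 20 pairs of a broad gene and a relative known for its expression in testis or germ cells, chosen after the data were seen, the relative was higher in every library in 6 pairs and the broad gene in 12. Cyct, the testis cytochrome c gene, stood at 427, 419 and 540 FPKM and Cycs at 386, 247 and 376. Smc1b, the meiotic cohesin subunit gene, stood at 103, 94.1 and 94.1 FPKM against 9.22, 16.1 and 10.6 for Smc1a. Ctcfl, the germ cell paralogue of the insulator factor gene Ctcf, stood at 32.1, 27.6 and 41.6 FPKM against 9.44, 9.82 and 9.06. Taf4b stood at 24.3, 23.2 and 15.1 FPKM against 1.14, 1.37 and 1.43 for Taf4a. Tuba3a and Stag3 were the other relatives above their broad partners. The testis genes Gapdhs and Aldoart1 were listed at 0 beside Gapdh and Aldoa. Reads of close paralogues may be split between them, so these ratios are uncertain.

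Of 6 gene pairs on the X and Y chromosomes, also chosen after the data were seen, the Y copy was higher in every library in 3 and the X copy in 3. Eif2s3y, a translation initiation factor gene, stood at 113, 143 and 92.8 FPKM against 10.5, 11.8 and 9.61 for Eif2s3x. Uty and Kdm5d were also above Kdm6a and Kdm5c, whereas Ddx3x, at 48.4, 59.0 and 51.5 FPKM, was above Ddx3y at 6.58, 7.97 and 4.89. Sry was listed at 0.

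Long noncoding RNAs at over 100 FPKM, named after their values were seen, included the small nucleolar RNA host genes Snhg3 (351 ± 15.2 FPKM) and Snhg6 (181 ± 33.9). Malat1, a nuclear noncoding RNA, stood at 74.1, 65.6 and 48.4 FPKM. Among imprinted genes 19 of 26 reached 1 FPKM, led by Cd81 (96.7 ± 27.8 FPKM) and Snrpn (47.5 ± 2.42), with Rtl1 listed at 0. Of 18 hormone receptor genes 3 reached 1 FPKM, among them the glucocorticoid receptor gene Nr3c1 at 5.0, 4.31 and 4.42 FPKM. Of 21 apoptosis genes 15 reached 1 FPKM, led by Cycs, Birc5 (199 ± 33.5 FPKM) and Bax (178 ± 10.1).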
